A study of Mus musculus with 2 samples.

Results

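The 39 Hox genes of the mouse were examined in cultured mouse cavernous endothelial cells (MCECs), as the samples were labelled. A gene was taken as a member where its symbol was Hoxa, Hoxb, Hoxc or Hoxd followed by a number and nothing more, which gave 39 of the 23183 gene symbols in the data. All 39 had values in both libraries, and 20 of them passed a filter on low values (a mean log2(FPKM + 1) over the 2 libraries of at least 1, where FPKM is fragments per kilobase of transcript, scaled to library depth). The remaining 19 are accounted for below, mostly by their range.

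The MCECs were primary cultures from the corpus cavernosum of C57BL/6J mice, kept in high glucose (HG, 30 mM per the study's methods). The HG+HBS library came from cells given the vehicle, HEPES-buffered saline. The HG+PC-NVs library came from cells given nanovesicles derived from pericytes (PC-NVs) at 1 µg/mL, which are vesicle-like particles made from cultured mouse cavernous pericytes. The methods place RNA isolation at 72 hours of glucose and 24 hours of PC-NVs, whereas the sample labels give 5 days of glucose. Each condition had 1 library of poly(A)-selected RNA, so differences between the conditions have no replicate check, and no p-value is given. Values are the deposited log2(normalized FPKM + 1), converted to FPKM and summed over the rows of a symbol. The files hold no read counts. The worth of 1 fragment was read from low values and gave approximate depths of 13400000 fragments (HG+HBS) and 11600000 fragments (HG+PC-NVs). Intervals on ratios are exact (Clopper-Pearson) 95% binomial intervals from those approximate fragments and cover counting error only. Values given as a pair are in the order HG+HBS, HG+PC-NVs.

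Hox genes encode homeodomain transcription factors that give cells along the body axis, in the limbs and in the genital tubercle their positional address. They lie in 4 clusters, and genes at the same place in different clusters form 13 paralog groups. Low-numbered groups are switched on early and toward the head, and high-numbered groups late and toward the tail, limb ends and genitals. Hoxa13 and Hoxd13 are required for growth of the genital tubercle, from which the penis forms. Cultured fibroblasts and vessel cells of an adult are known to keep part of the Hox pattern of the body site they came from.

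The labelled cell type was checked against its markers. Of 12 endothelial markers 3 passed the filter, Esam at 17.4 and 11.7 FPKM, Egfl7 at 9.48 and 8.57 FPKM and Cdh5 at 5.05 and 5.73 FPKM. Pecam1 was at 1.05 and 0.938 FPKM, and the other 8 (Kdr, Tek, Tie1, Vwf, Cldn5, Erg, Emcn and Nos3) were under 1 FPKM in both libraries. The summed endothelial markers were at 35.4 and 28.6 FPKM, and the data thus went against a mainly endothelial culture. All 7 fibroblast and mesenchymal markers passed, with a sum of 2003 and 2325 FPKM. Dcn rose from 623 to 1283 FPKM (log2 ratio 1.04), whereas the other markers of this list had log2 ratios below 0 (6 of 7, list median -0.31), among them Col1a2, which fell from 312 to 198 FPKM (-0.65), Thy1, at 549 and 412 FPKM (-0.41), and Pdgfra, at 149 and 129 FPKM (-0.21). The Hox levels below are those of a culture whose RNA held far more of these mesenchymal markers than of endothelial ones.

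Markers of other cell types were read in the same way. Of 9 smooth muscle and pericyte markers 7 passed, with a sum of 115.9 and 92.0 FPKM. Acta2, at 27.6 and 8.02 FPKM, Tagln, at 17.3 and 7.34 FPKM, and Cspg4, at 20.4 and 12.2 FPKM, were past 1.5-fold lower in HG+PC-NVs. Rgs5, at 1.69 and 7.23 FPKM, and Kcnj8, at 7.98 and 20.4 FPKM, were past it higher, so the smooth muscle and pericyte list was split in direction. These were 2 higher and 3 lower of 7, beside 5.33% and 3.57% of all symbols past the filter. Pdgfrb, the highest marker of the list, was at 38.4 and 33.7 FPKM (log2 ratio -0.18). All 5 myeloid markers passed, with a sum of 265 and 269.6 FPKM, and a median log2 ratio of -0.13. Adgre1 rose from 7.44 to 42.5 FPKM, and Ptprc was at 1.44 and 1.67 FPKM (log2 ratio 0.13). Lower in HG+PC-NVs were Cd68, at 36.2 and 26.3 FPKM, Csf1r, at 8.39 and 6.204 FPKM, and Lyz2, at 212 and 193 FPKM. Of 6 epithelial markers 1 passed (Krt18, 9.61 and 2.05 FPKM) and Cdh1, Krt5 and Krt14 were listed at 0, and of 4 Schwann and nerve markers 1 passed (Tubb3, 12.8 and 7.26 FPKM). In bulk RNA, fewer cells of a type and less RNA per cell cannot be told apart, and the part of these marker shifts in the Hox values was not tested.

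**Figure D1:**
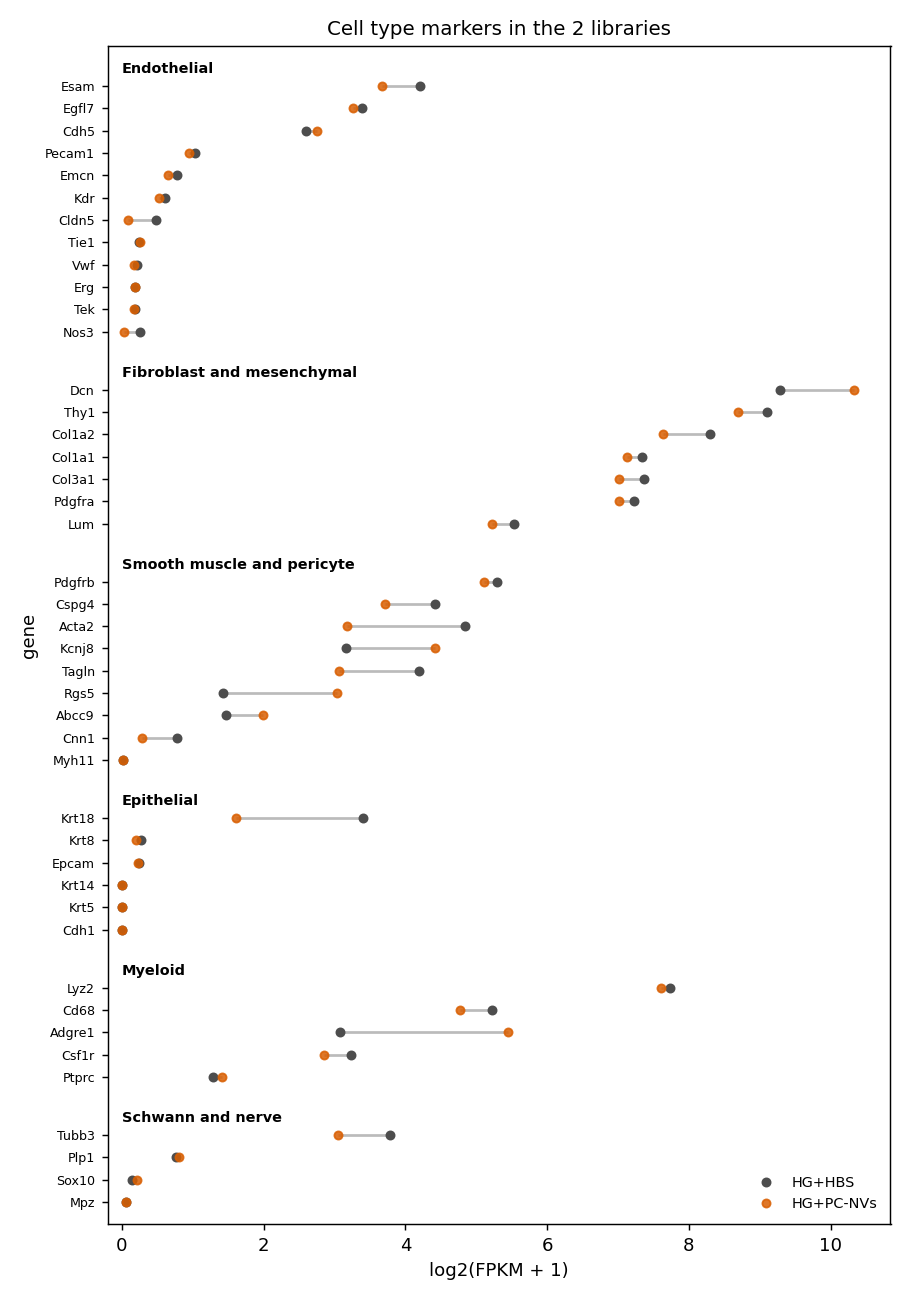
Level as log2(FPKM + 1) (horizontal axis) of the cell type markers in HG+HBS (dark points) and HG+PC-NVs (orange points), 1 row per gene, grouped by cell type. Of the endothelial markers only Esam, Egfl7 and Cdh5 lie above 2, whereas all fibroblast and mesenchymal markers lie above 5.

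The homeobox, the part of a Hox gene that encodes the DNA-binding homeodomain, shows how alike these genes are. All 39 homeoboxes were found in GENCODE M21 transcripts of GRCm38 (the same assembly as mm10, the build named in the submitters' processing notes). Each was 180 nt long and lay within a single coding exon, the last exon of its gene. The 4 homeoboxes of paralog group 13 are shown because this group held the highest Hox level in the cells as well as a gene listed at 0. Capitals mark the 82 positions at which the 4 genes are not all the same.
Hoxa13: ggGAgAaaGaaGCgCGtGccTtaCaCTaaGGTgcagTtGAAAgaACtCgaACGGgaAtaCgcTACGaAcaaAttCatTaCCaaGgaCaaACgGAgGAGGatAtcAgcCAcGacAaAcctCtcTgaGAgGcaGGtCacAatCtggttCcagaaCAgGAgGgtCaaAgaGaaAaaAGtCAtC
Hoxb13: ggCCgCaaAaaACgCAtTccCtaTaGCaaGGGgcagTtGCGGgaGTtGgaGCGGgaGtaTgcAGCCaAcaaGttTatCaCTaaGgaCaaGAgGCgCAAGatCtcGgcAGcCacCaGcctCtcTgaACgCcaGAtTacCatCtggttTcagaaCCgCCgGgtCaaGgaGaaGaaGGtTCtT
Hoxc13: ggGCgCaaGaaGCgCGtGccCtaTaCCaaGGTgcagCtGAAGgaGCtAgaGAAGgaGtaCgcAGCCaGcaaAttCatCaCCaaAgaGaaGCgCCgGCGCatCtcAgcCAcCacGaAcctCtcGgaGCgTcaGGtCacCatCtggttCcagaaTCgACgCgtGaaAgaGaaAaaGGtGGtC
Hoxd13: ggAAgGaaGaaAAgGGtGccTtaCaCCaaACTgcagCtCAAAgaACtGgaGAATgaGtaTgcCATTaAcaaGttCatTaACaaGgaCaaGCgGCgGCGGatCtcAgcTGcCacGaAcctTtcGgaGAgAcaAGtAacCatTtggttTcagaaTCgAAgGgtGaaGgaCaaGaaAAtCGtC
The Hoxa13 homeobox is at chr6:52258928-52259107 on the minus strand in exon 5 of 5. The Hoxb13 homeobox is at chr11:96196020-96196199, the Hoxc13 homeobox at chr15:102927210-102927389 and the Hoxd13 homeobox at chr2:74669930-74670109, each on the plus strand in exon 2 of 2. Hoxd13 matched Hoxa13 at 73.9% of positions, Hoxc13 at 75.0% and Hoxb13 at 67.2%.

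The 3 homeoboxes of paralog group 10 are shown because Hoxa10 and Hoxc10 had the next highest levels after Hoxd13 in HG+HBS. Capitals mark the 50 positions that differ within this group.
Hoxa10: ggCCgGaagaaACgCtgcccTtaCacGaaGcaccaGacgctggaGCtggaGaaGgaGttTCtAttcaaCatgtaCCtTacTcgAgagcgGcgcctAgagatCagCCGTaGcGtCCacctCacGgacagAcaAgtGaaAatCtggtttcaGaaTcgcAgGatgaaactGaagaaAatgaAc
Hoxc10: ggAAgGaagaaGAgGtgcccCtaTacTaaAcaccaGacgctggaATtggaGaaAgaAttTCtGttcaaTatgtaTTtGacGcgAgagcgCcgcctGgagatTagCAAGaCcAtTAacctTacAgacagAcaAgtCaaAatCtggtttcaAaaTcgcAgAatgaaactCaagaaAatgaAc
Hoxd10: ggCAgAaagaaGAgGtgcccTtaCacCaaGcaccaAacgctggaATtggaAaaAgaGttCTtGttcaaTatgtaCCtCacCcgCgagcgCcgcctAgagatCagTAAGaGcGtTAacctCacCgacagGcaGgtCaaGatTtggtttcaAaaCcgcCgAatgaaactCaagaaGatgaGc
They are at chr6:52232554-52232733 on the minus strand for Hoxa10, chr15:102970848-102971027 on the plus strand for Hoxc10 and chr2:74694141-74694320 on the plus strand for Hoxd10, each in exon 2 of 2. Hoxa10 and Hoxc10 were identical at 80.6% of positions, Hoxa10 and Hoxd10 at 78.9%, and Hoxc10 and Hoxd10 at 82.8%. Over all pairs of Hox genes, identity within a paralog group was 67.2% to 93.9% with a median of 80.6% (42 pairs), and between groups it was 46.1% to 88.9% with a median of 60.6% (699 pairs). The transcripts compared for shared stretches were only those matched to a RefSeq mRNA record. None of these shared an identical stretch of 100 nt with another Hox gene (0 of 39).

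The Hox genes expressed in these cells were mainly those of paralog groups 9 to 13. Of the 16 genes in these groups 12 passed the filter, and they held 85.3% and 84.3% of the summed FPKM of the 20 passing Hox genes. Of the 23 genes in groups 1 to 8, 8 passed and held 14.7% and 15.7%. The passing and other Hox genes together were a small part of the RNA, at 0.0311% and 0.0274% of all FPKM. Their sum was 162.2 and 159.2 FPKM, whereas all symbols summed to 521666 and 580717 FPKM. The lower share in HG+PC-NVs thus went mainly with the larger total.

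The clusters contributed unequally to the summed FPKM of the passing genes. The HoxD cluster (chr2:74668310-74765142) held 46.8% and 47.6%, with 6 of 9 genes passing. The HoxC cluster (chr15:102921103-103036852) held 27.1% and 28.1%, with 6 of 9 passing, and the HoxA cluster (chr6:52155590-52260880) held 23.8% and 21.8%, with 5 of 11 passing. The HoxB cluster (chr11:96194316-96368256) held 2.35% and 2.52%, with 3 of 10 passing, all of them from groups 2 to 4. The order of the clusters was the same in both libraries.

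**Figure D2:**
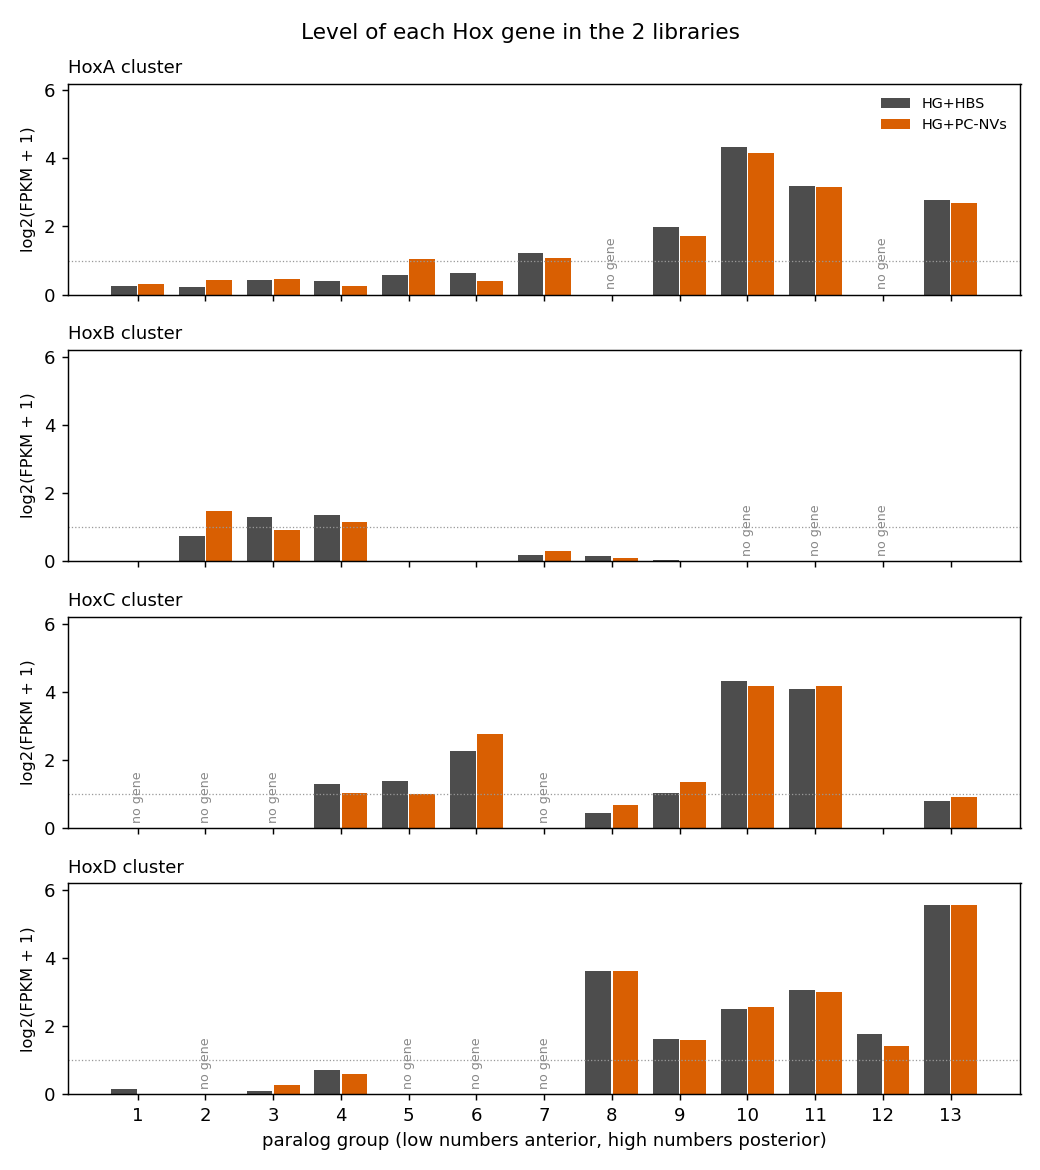
Level of the 39 Hox genes in the 2 libraries as log2(FPKM + 1) (vertical axis), by cluster (panels) and paralog group (horizontal axis), with 1 bar per library and a dotted line at 1. The tallest bars are Hoxd13, Hoxa10, Hoxc10 and Hoxc11, and the HoxB panel has no bar above 2.

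Group 13 contained the most abundant Hox gene. Hoxd13 was at 46.2 and 46.4 FPKM, about 1533 and 1341 fragments, which placed it at rank 1751 and 1815 among all symbols. Its log2 ratio (HG+PC-NVs over HG+HBS, each as FPKM + 1) was 0.01, and the ratio of its FPKM had an interval of 0.933 to 1.08. Hoxd13 was thus the Hox gene measured with the most fragments, and its values in the libraries were alike within counting error. Hoxa13, its partner in the genital tubercle, was at 5.80 and 5.44 FPKM (log2 ratio -0.08). Hoxc13, known from hair and nails, did not pass the filter at 0.731 and 0.855 FPKM. Hoxb13, known from prostate and tail, was listed at 0 in both libraries. The gene with the highest level of the family and a gene listed at 0 thus stood in the same paralog group.

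Groups 10 and 11 were expressed from every cluster that carries them. These genes pattern the hindlimb, the kidney and the reproductive tract. Hoxa10 was at 19.4 and 16.9 FPKM (log2 ratio -0.19, ratio interval 0.762 to 0.995). Most of this difference lay in 1 of its 2 rows, at 7.80 and 5.78 FPKM. The stronger row was at 11.6 and 11.1 FPKM (log2 ratio -0.06). Hoxc10 was at 19.0 and 17.0 FPKM (log2 ratio -0.15), and Hoxd10 at 4.65 and 4.87 FPKM (log2 ratio 0.05). Group 10 made up 27.2% and 25.1% of the summed FPKM of passing Hox genes, with most of it from the HoxA and HoxC members. Hoxc11 was at 15.9 and 17.1 FPKM (log2 ratio 0.09), Hoxa11 at 8.14 and 7.92 FPKM (log2 ratio -0.04) and Hoxd11 at 7.31 and 7.06 FPKM (log2 ratio -0.04). The 2 rows of Hoxd11 moved in opposite directions, from 4.19 to 4.55 and from 3.11 to 2.51 FPKM. Group 11 made up 19.9% and 20.8%.

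Hoxd13, Hoxa10, Hoxc10 and Hoxc11 alone accounted for 63.6% and 63.1% of the summed FPKM of passing Hox genes. Hoxa10, Hoxc10 and Hoxc11 lay between 15.9 and 19.4 FPKM with HBS and between 16.9 and 17.1 FPKM with PC-NVs, and these 3 cannot be ranked from 1 library each.

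Groups 9 and 12 were lower. Hoxa9, which is also known from blood progenitors and endothelial cells, was at 2.99 and 2.27 FPKM (log2 ratio -0.29). Its stronger row was at 2.16 and 2.01 FPKM (log2 ratio -0.07) and its other row at 0.827 and 0.264 FPKM. Hoxd9 was at 2.07 and 2.01 FPKM (log2 ratio -0.03), and Hoxc9 at 1.03 and 1.52 FPKM (log2 ratio 0.31). Hoxb9, at 0.0274 FPKM in HG+HBS and listed at 0 in HG+PC-NVs, was the only member of group 9 that did not pass. Hoxd12 was at 2.42 and 1.67 FPKM (log2 ratio -0.36, ratio interval 0.471 to 0.989), while Hoxc12, the other gene of its group, was listed at 0 in both. In the HoxD cluster the levels did not run in order of position, since Hoxd12 lay below both of its neighbours, Hoxd11 and Hoxd13, in both libraries.

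Among groups 1 to 8, Hoxd8 stood apart in level. This gene, which is active in the trunk, was at 11.3 and 11.4 FPKM (log2 ratio 0.02, 3 rows summed) and was the fifth most abundant Hox gene in both libraries. The Hoxd8 rows moved in different directions, from 2.67 to 4.77, from 5.15 to 5.78 and from 3.44 to 0.862 FPKM. The ratio near 1 is thus that of their sum and not of each row. Hoxc6, a gene of the thoracic region, was at 3.81 and 5.78 FPKM (log2 ratio 0.50), about 80.5 and 106 fragments, with a ratio of 1.52 and an interval of 1.13 to 2.06. The other HoxA and HoxC genes of these groups that passed were between 1 and 2 FPKM. Hoxa7 was at 1.32 and 1.09 FPKM, Hoxc4 at 1.45 and 1.03 FPKM, and Hoxc5 at 1.61 and 1.01 FPKM (log2 ratios -0.15, -0.27 and -0.38).

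Hoxb2 was the member with the largest ratio. Hoxb2, which patterns the hindbrain, was at 0.668 and 1.78 FPKM, about 14.5 and 33.8 fragments. Its FPKM + 1 was 1.67-fold higher in HG+PC-NVs (log2 ratio 0.74), and without the added 1 the ratio was 2.67 with an interval of 1.38 to 5.14. The next genes on one side of it, Hoxb3 and Hoxb4, had log2 ratios below 0, and Hoxb1 on its other side was listed at 0 in both libraries. Hoxb3 was at 1.47 and 0.895 FPKM (log2 ratio -0.38) and Hoxb4 at 1.58 and 1.21 FPKM (log2 ratio -0.22), with a ratio interval of 0.357 to 0.978 for Hoxb3 and one of 0.488 to 1.19, which contains 1, for Hoxb4. The Hoxb3 values came from different rows in the 2 libraries, since 1 row went from 1.46 FPKM to 0 and the other from 0.00877 to 0.895 FPKM.

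The ratios of the Hox genes were set beside those of all genes. Of the 20 passing Hox genes, 1 (Hoxb2) exceeded 1.5-fold in the direction of HG+PC-NVs, where 5.33% of all 11785 passing symbols were, and 0 did so in the direction of HG+HBS, where 3.57% of all were. Past 1.5-fold in either direction this is 5.0% of the Hox genes beside 8.9% of all symbols, and past 2-fold it is 0 Hox genes beside 2.38% of symbols higher and 0.798% lower. The median log2 ratio was -0.06 for the Hox genes and -0.01 for all symbols, and the median size of the log2 ratio, without its sign, was 0.17 and 0.16, so the Hox ratios were of about the same size as those of all symbols. The log2 ratio was above 0 in 7 Hox genes and below 0 in 13. This split was not counted over all symbols, and some of the 13 lay near 0, among them Hoxd9 (-0.03), Hoxa11 (-0.04) and Hoxd11 (-0.04). The share of Hox genes past 1.5-fold was thus near the background, and with 20 genes and no replicates it is a description.

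**Figure D3:**
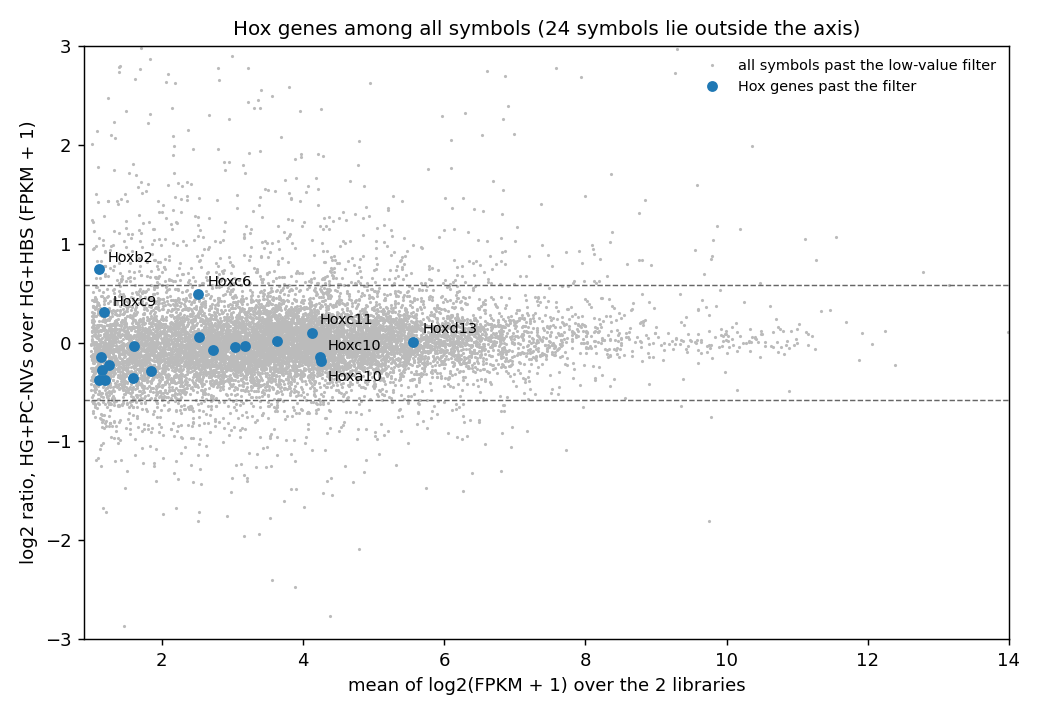
Log2 ratio of HG+PC-NVs over HG+HBS (FPKM + 1, vertical axis) against the mean log2(FPKM + 1) of the 2 libraries (horizontal axis) for the symbols past the filter (grey) and the 20 passing Hox genes (blue), with dashed lines at 1.5-fold and 24 symbols outside the axis. Hoxb2 is the only Hox gene beyond a dashed line, and Hoxd13, the highest, lies at 0.01.

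The ratios of the abundant Hox genes spread less than those of the lower ones. The 8 passing Hox genes with a mean of at least log2(5 + 1) had log2 ratios between -0.19 and 0.09. The larger ratios were among genes with fewer fragments, down to about 14.5 in a library. Some lower genes were near 0 as well, among them Hoxd9 (log2 ratio -0.03) and Hoxd10 (0.05). The interval for counting error did not contain 1 for 6 of the 20 genes. Hoxb2 and Hoxc6 had ratios above 1, and Hoxa10, Hoxb3, Hoxc5 and Hoxd12 had ratios below 1. These intervals compare the libraries and not the conditions. The same count was not made over all symbols, so whether 6 of 20 differs from the background was not tested. With a pseudocount of 0.1 in place of 1, the log2 ratio also passed 1.5-fold for Hoxc6 (0.59, higher), Hoxb3 (-0.66, lower) and Hoxc5 (-0.63, lower). That made 2 Hox genes higher and 2 lower, beside 772 and 683 of all 11785 symbols.

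**Figure D4:**
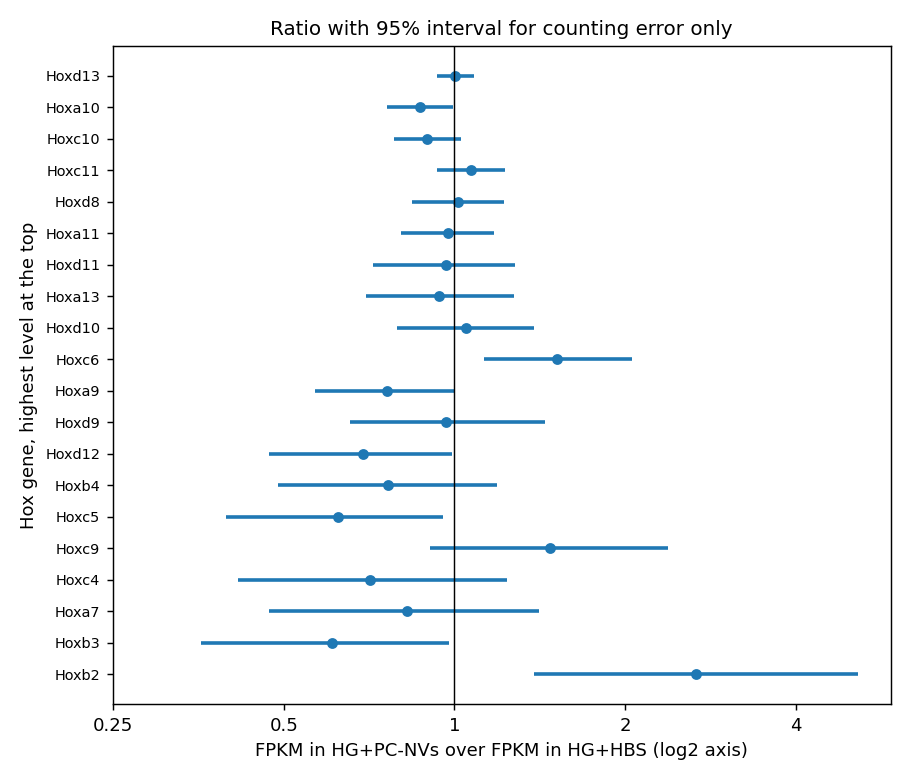
Ratio of FPKM in HG+PC-NVs to FPKM in HG+HBS without a pseudocount (log2 axis) for the 20 passing Hox genes, ordered by level with the highest at the top. Points are ratios and bars are exact 95% binomial intervals for counting error only, which run from 0.933 to 1.08 for Hoxd13 and from 1.38 to 5.14 for Hoxb2.

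The 19 Hox genes that did not pass reached at most 1.04 FPKM in either library. The highest was Hoxa5, at 0.488 and 1.04 FPKM, about 12.2 and 22.8 fragments (ratio 2.14, interval 1.05 to 4.85). Of the others, Hoxd4 was at 0.634 and 0.505 FPKM, Hoxa6 at 0.544 and 0.320 FPKM, and Hoxc8 at 0.345 and 0.587 FPKM. Across the 19 genes, 8 had a higher value in HG+PC-NVs, 7 had a higher value in HG+HBS and 4 were equal at 0. The 4 genes listed at 0 in both libraries were Hoxb1, Hoxb5, Hoxb13 and Hoxc12, for which 3 fragments, the limit that a count of 0 allows, correspond to 0.102 to 0.25 FPKM depending on the gene and library. For these 4 genes a level below that cannot be told apart from 0 at this depth.

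Some Hox genes overlap one another or an antisense transcript. The annotated span of Hoxc5 (chr15:102967443-103017429) takes in Hoxc6, Hoxc8 and Hoxc9 and most of Hoxc10, that of Hoxa3 (chr6:52169062-52213336) takes in Hoxa4, Hoxa5 and Hoxa6, and that of Hoxd3 (chr2:74711927-74748442) takes in Hoxd4. The transcripts matched to a RefSeq mRNA record had no stretch of 100 nt in common with another gene of their cluster (0 of 39). Other transcripts of these genes were not compared, so sharing of reads across the overlapping spans was not tested. Hoxa11os, the antisense RNA of Hoxa11, was at 10.2 and 7.67 FPKM (log2 ratio -0.36) and overlaps Hoxa11 by 1418 nt on the opposite strand. The library kit keeps strand, but whether the counting used it is not given in the sources used here, so reads of Hoxa11 and Hoxa11os cannot be told apart with certainty. Of the other non-coding RNAs and Evx genes of the clusters, Evx2, a homeobox gene next to Hoxd13, was at 1.83 and 2.14 FPKM, and Hotair, transcribed from the HoxC cluster, was at 1.14 and 1.18 FPKM. Of the 12 such genes with rows in the data, these 3 passed the filter, with a median log2 ratio of 0.02. Past 1.5-fold in either direction there were 0, beside 8.9% of all symbols.

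Hox proteins bind DNA together with the TALE homeodomain proteins of the Pbx, Meis and Pknox families. Of 8 TALE genes read 7 passed, and all 7 had log2 ratios below 0 (median -0.19, beside -0.01 over all symbols). Past 1.5-fold, 0 were higher and 1 was lower, beside 5.33% and 3.57% of all symbols. Pbx2 was at 17.5 and 15.1 FPKM (log2 ratio -0.19), Meis1 at 13.01 and 12.4 FPKM (-0.07) and Meis3 at 12.6 and 10.4 FPKM (-0.26). The gene that fell was Pknox2, from 7.85 to 3.30 FPKM (log2 ratio -1.04). Pknox2 was between Hoxa11 and Hoxd11 in level with HBS and below both with PC-NVs.

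Hox clusters are kept silent by Polycomb complexes and active by Trithorax-type complexes. All 20 Polycomb genes passed, with a median log2 ratio of -0.04. Past 1.5-fold, 0 were higher and 1 was lower, beside 5.33% and 3.57% of all symbols. Phc2 was at 76.6 and 60.6 FPKM, Cbx6 at 71.8 and 55.9 FPKM and Rnf2, a ubiquitin ligase that marks histone H2A, at 44.0 and 43.5 FPKM. The gene that fell was Cbx7, from 2.09 to 1.00 FPKM (log2 ratio -0.63), named after its values were seen. Of 14 Trithorax and other activator genes 11 passed, with a median log2 ratio of -0.01. Of these, 0 were past 1.5-fold in either direction, beside 8.9% of all symbols. Dpy30 was at 39.0 and 39.3 FPKM, Men1 at 22.8 and 23.1 FPKM and Psip1 at 16.4 and 19.3 FPKM. Cdx1 and Cdx2, which switch on posterior Hox genes in the embryo, were listed at 0 in both libraries.

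Retinoic acid is a classical inducer of Hox genes, first of the low-numbered groups. Of 17 genes of its pathway 13 passed, 1 was past 1.5-fold higher (5.33% of all symbols were) and 2 lower (3.57% of all were), with a median log2 ratio of -0.16 beside -0.01 over all symbols. The intracellular binding protein gene Crabp1 fell from 1141 to 678 FPKM (log2 ratio -0.75). Rarb, a receptor gene that retinoic acid itself induces, fell from 3.54 to 1.48 FPKM (log2 ratio -0.87), and Cyp26b1, which encodes an enzyme that breaks retinoic acid down, rose from 1.03 to 3.36 FPKM (log2 ratio 1.10), both named after their values were seen. The most abundant receptors were Rarg, at 60.7 and 59.8 FPKM, and Rxra, at 30.5 and 28.0 FPKM. Neither of these receptors passed the threshold.

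Positional identity is also carried by other transcription factors. Of 13 pelvic, hindlimb and genital factors 11 passed, 1 was past 1.5-fold higher and 2 lower, beside the same 5.33% and 3.57% of all symbols, with a median log2 ratio of -0.23. Tbx2 fell from 56.1 to 29.8 FPKM (log2 ratio -0.89) and Osr1 from 21.3 to 11.6 FPKM (-0.83), whereas Tbx3, a close relative of Tbx2, rose from 19.1 to 33.5 FPKM (0.78). Isl1, which is required for hindlimb and genital outgrowth, was at 36.6 and 35.5 FPKM (log2 ratio -0.04). The hindlimb identity genes Pitx1 and Tbx4, added after their values were seen, were at 23.3 and 19.7 FPKM and at 22.2 and 21.0 FPKM (log2 ratios -0.23 and -0.08).

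Of 14 factors listed here under the anterior body, heart and head 5 passed, with a median log2 ratio of -0.14. Whether the listed genes are active only at those sites was not checked. Of these, 0 were past 1.5-fold in either direction, beside 8.9% of all symbols. Alx4 was at 18.6 and 13.9 FPKM, Tbx5, the forelimb and heart counterpart of Tbx4, at 8.01 and 7.16 FPKM and Hand2 at 3.81 and 4.54 FPKM. The other 9 that did not pass were under 1 FPKM in both libraries, so this list was expressed in part.

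**Figure D5:**
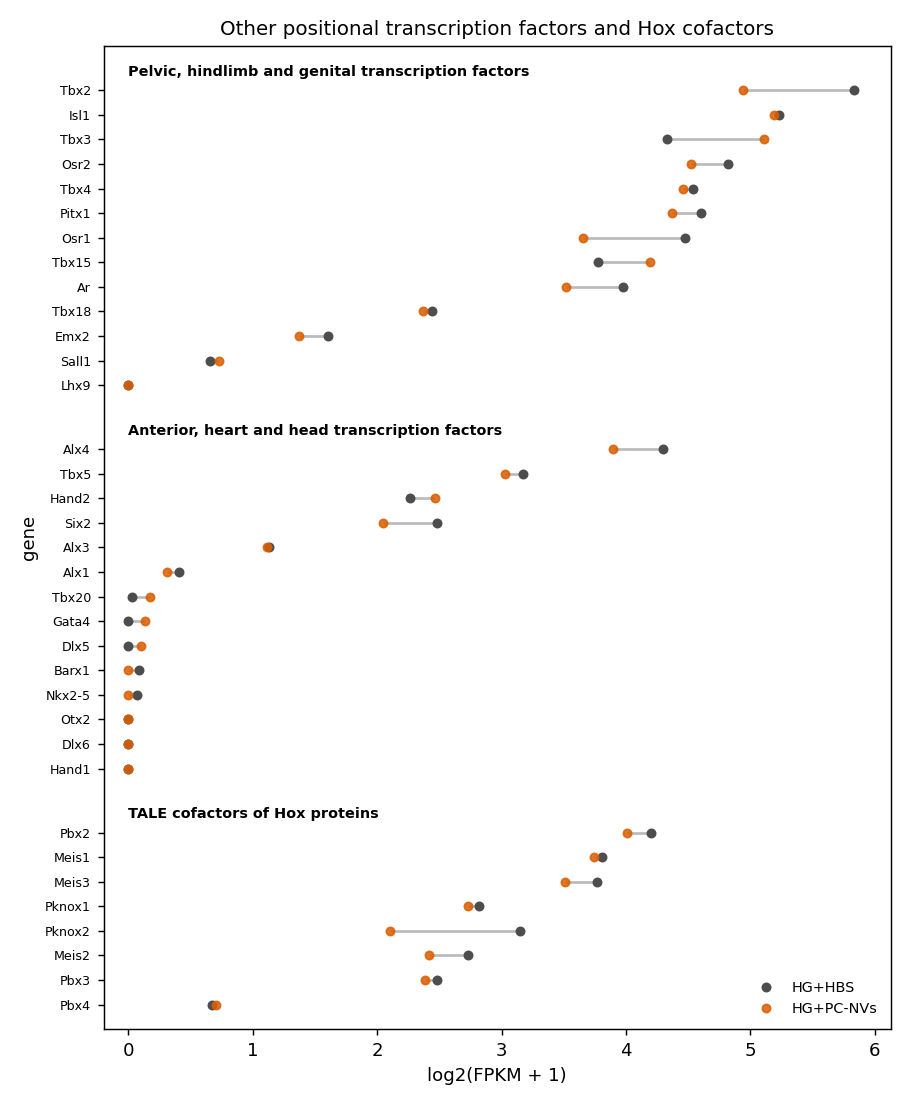
Level as log2(FPKM + 1) (horizontal axis) of positional transcription factors and TALE cofactors in HG+HBS (dark points) and HG+PC-NVs (orange points), 1 row per gene, grouped by list. Most pairs of points lie close together, and the longest lines join the points of Tbx2, Tbx3, Osr1 and Pknox2.

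Genes that have been described as Hox targets in endothelial or other cells were read last. Of 13 such genes 10 passed, 2 were past 1.5-fold higher and 0 lower, again beside 5.33% and 3.57% of all symbols, with a median log2 ratio of 0.17. Ptgs2, which encodes an inducible prostaglandin synthase, rose from 44.5 to 293 FPKM (log2 ratio 2.69), and Sele, the adhesion molecule E-selectin, rose from 7.62 to 12.4 FPKM (0.64). Both are also known to be induced by inflammatory signals. Fgf2 was at 67.5 and 66.4 FPKM and Thbs2 at 57.6 and 64.9 FPKM.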

How the data were processed

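The data were 2 RNA sequencing libraries of MCECs in high glucose, 1 per condition (HG+HBS, HG+PC-NVs). After trimming, the authors mapped reads with TopHat, used BEDTools for read counts and Cufflinks for FPKM, and normalized in edgeR with a method named as quantile normalization. The labels name mm10, and versions and the annotation are not given in the sources used here. The authors deposited log2(normalized FPKM + 1) for 33299 rows per library. That the scale is log2 was read from the values.

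Rows of a symbol were summed as FPKM. The log2 ratio is that of FPKM + 1 on the deposited values, which understates the change of low genes, and the threshold was 1.5-fold. Symbols were compared where log2(FPKM + 1) averaged 1 or more (11785 of 23183). To estimate what 1 fragment is worth, FPKM was multiplied by transcript length (kb) in 2189 genes that have a single transcript of at least 1500 nt, and the commonest low product was taken (FPKM above 0.001). This was 0.0748 for HBS and 0.0859 for PC-NVs, and a further peak lay at 1.99 and 2.01 times it. Because the values had been normalized by the authors, fragments and intervals are approximate.

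The members and lists were chosen with earlier results of these data known. All passing Hox genes are named, and of each list of related genes the 3 with the highest mean and those past 1.5-fold with at least 5 FPKM in a library. Coordinates and sequences are from GENCODE M21 (GRCm38). Alternatives covered the scaling between libraries, the pseudocount, the filter, the summing of rows and the threshold. The values of 1 gene of these lists are not reported here, and its list was summarised without it. The calculations were tested on simulated data. Analyses ran in Python 3.11.15 with scipy 1.17.1, pandas 2.3.3 and numpy 2.4.6, and plots were drawn with matplotlib 3.10.9.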

Additional observations from a re-analysis of the deposited data

How the results depend on the processing

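With quantile normalization, median centring or upper-quartile scaling, 1 Hox gene was past 1.5-fold higher and 0 lower. The median log2 ratio of the Hox genes stayed between -0.09 and -0.04 in all settings. With a pseudocount of 0.1 the counts were 2 higher and 2 lower, beside 772 and 683 of all 11785 symbols. With a 2-fold threshold 0 Hox genes were higher. Without a filter, 35 Hox genes were above 0 and groups 9 to 13 held 83.6% (HG+HBS) and 82.2% (HG+PC-NVs) of the summed Hox FPKM. With a filter at a mean of 3, 7 Hox genes passed and 0 were higher, and the shares in HG+HBS and HG+PC-NVs were 21.6% and 20.0% for HoxA, 0% and 0% for HoxB, 50.9% and 52.4% for HoxD, and 91.1% and 90.8% for groups 9 to 13. With the strongest row of a symbol in place of the sum, they were 20.9% and 19.8% for HoxA, 1.62% in HG+HBS for HoxB, 30.9% and 31.2% for HoxC, and 88.8% and 87.3% for groups 9 to 13. These follow from the genes or rows that each setting leaves out. Of 100 values of single Hox genes under other settings, 99 moved by less than their counting error and 1 moved further, Hoxb3 at -1.30 with its strongest row. Part of this was fixed in advance. Median centring moved all genes by the same small amount, and the strongest row could differ from the sum only in the 5 passing genes with more than 1 row. The counting error of low genes was also wide enough to hold large moves. With a pseudocount of 0.1, Hoxb2 went from 0.74 to 1.30 and stayed within it. Hoxc6, Hoxb3 and Hoxc5 passed 1.5-fold in that setting and stayed within it as well. The sign changed in 4 of the 100 values, all near 0 on the log2 scale: Hoxd13 to -0.06 with quantile normalization and -0.03 with upper-quartile scaling, Hoxd8 to -0.01 with upper-quartile scaling, and Hoxd11 to 0.10 with its strongest row.

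No paired analysis was possible because each condition had 1 library, and no replicate was left out for the same reason. The conditions cannot be told apart from the cultures or libraries that carried them. Depth limits the low genes, since the median counting interval of a passing Hox gene reached 0.43 on the log2 scale to either side.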
